A study of Mus musculus with 6 samples.

Results

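The mouse Fc receptor genes that handle immunoglobulin G (IgG) were followed in dendritic cells grown from bone marrow (BMDC). Their 6 genes were chosen by name: the IgG receptors Fcgr1, Fcgr2b, Fcgr3 and Fcgr4, the signalling chain Fcer1g and the neonatal Fc receptor Fcgrt. All 6 were among the 23398 genes of the deposited table, and all 6 passed the expression filter that left 10682 genes for testing. Nanoparticles of calcium hydroxide, Ca(OH)2, were given for 12 hours to 3 samples, and 3 control samples received vehicle for the same time. Both groups were BMDC cultured in DMEM with serum and antibiotics. Mouse strain, sex and age, the growth factors used to derive the cells, and the particle dose are not given in the sources used here. The labels do not say whether the 3 samples of a group came from separate cultures or animals, so the p-values below measure the spread between these samples, which may be technical.

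IgG receptors link antibody-coated particles and immune complexes to phagocytes and dendritic cells. The activating receptors reach the cell interior through an immunoreceptor tyrosine-based activation motif on the common gamma chain, which Fcer1g encodes, and Src-family kinases and Syk act on that motif. The inhibitory receptor encoded by Fcgr2b carries an inhibitory motif instead and recruits the lipid phosphatase encoded by Inpp5d, while the neonatal receptor encoded by Fcgrt pairs with the light chain encoded by B2m, binds IgG in endosomes and returns it to the cell surface. In dendritic cells these receptors feed antigen from immune complexes into presentation.

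Levels are given as FPKM, fragments per kilobase of merged exons on the deposited library scale, and recovered library totals ranged from 17280095 to 21975601 reads. A gene was called changed when limma's test on log2(FPKM + 1) gave a Benjamini-Hochberg adjusted p under 0.05 over all tested genes. By that rule 33.2% of tested genes were called, 17.0% as higher and 16.2% as lower with nanoparticles, and their median log2 change was -0.0010. On a scale of total reads the median moved to -0.28, with 10.4% called higher and 33.8% lower. Of all tested genes, 25.9% had every nanoparticle sample above every vehicle sample and 26.2% had every one below. Nanoparticle sample 1 stood apart: across tested genes, which are not independent replicates, its values correlated at 0.942 and 0.928 with the other nanoparticle samples, against 0.990 between those and 0.993 to 0.994 between vehicle samples. The labels name no batch.

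The labelled cell type was compared with marker lists. The counts of each list stand beside 17.0% of all tested genes called higher and 16.2% lower. The dendritic cell marker Itgax (the integrin chain of the surface marker for these cells) was at 442 to 456 FPKM with vehicle and 248 to 398 FPKM with nanoparticles, whereas Flt3, the receptor of a dendritic cell growth factor, was at most 0.079 FPKM in any sample. Of 9 tested dendritic cell markers 0 were called higher and 3 lower (Zbtb46, Cd209a and Clec10a), and the summed level of the list was 6141 to 6583 FPKM with vehicle and 3424 to 7756 FPKM with nanoparticles. Most of that sum was Cd74, H2-Ab1 and H2-Aa, genes of MHC class II presentation that were not called. Its low end was nanoparticle sample 1, with Cd74 at 2270 FPKM against 4790 and 5273 FPKM in nanoparticle samples 2 and 3. Of 11 tested macrophage markers 2 were called higher (Adgre1 and Cd68) and 5 lower (among them Mrc1, C1qa, C1qb and C1qc), with sums of 1141 to 1315 FPKM and 1013 to 1208 FPKM. Of 3 tested neutrophil markers S100a8 was called higher, Mmp8 lower and S100a9 neither. The list summed to 265 to 299 FPKM with vehicle and 180 to 253 FPKM with nanoparticles, most of it Mmp8, whose mean fell from 245 to 130 FPKM, and S100a8, whose mean rose from 34.9 to 83.1 FPKM. S100a9 had 10, 10 and 18 reads in vehicle samples 1 to 3 and 3, 114 and 103 in nanoparticle samples 1 to 3. In the same order Ngp had 6, 11 and 23 and then 1, 87 and 76 reads. Camp had 1, 0 and 3 and then 3, 23 and 29 reads. Cxcr2 went the other way, from 24, 46 and 51 reads to 1, 7 and 0. Ly6g, Mpo and Retnlg had at most 3 reads in every sample. Markers of B cells summed to at most 2.42 FPKM, of natural killer cells to at most 1.03 FPKM, of T cells to at most 1.98 FPKM and of mast cells and basophils to at most 5.82 FPKM. Ms4a1, Cr2, Ncr1 and the 3 Cd3 genes had at most 3 reads in every sample. Ighm, the 1 tested B cell marker, was called lower, from 69, 59 and 77 reads to 15, 0 and 8 (limma adjusted p = 0.00258). Of 3 tested mast cell and basophil markers Gata2 was called lower (limma adjusted p = 0.01905), Cpa3 and Kit neither. Markers of natural killer and T cells did not pass the filter. Among them Lck went from 15, 16 and 13 reads to 48, 34 and 79, and Cd2 from 10, 13 and 7 to 0, 1 and 0. The part of any of these marker changes in the receptor results was not tested. In bulk RNA fewer cells of a type and less RNA per cell cannot be told apart.

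Of the 6 genes, 4 rose with nanoparticles (Fcgr1, Fcgr2b, Fcgr4 and Fcer1g), 1 fell (Fcgrt) and 1 was not called (Fcgr3). The shares of all tested genes called higher and lower were 17.0% and 16.2%. On the deposited scale the groups did not overlap for any of the 6, with 5 higher and 1 lower, beside 25.9% and 26.2% of all tested genes. The same calls were made without nanoparticle sample 1, in a fit that called 34.3% of all tested genes higher and 30.5% lower. On the scale of total reads 3 of the 6 were called higher and 1 lower, beside 10.4% and 33.8%, as Fcgr4 lost its call.

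**Figure D1:**
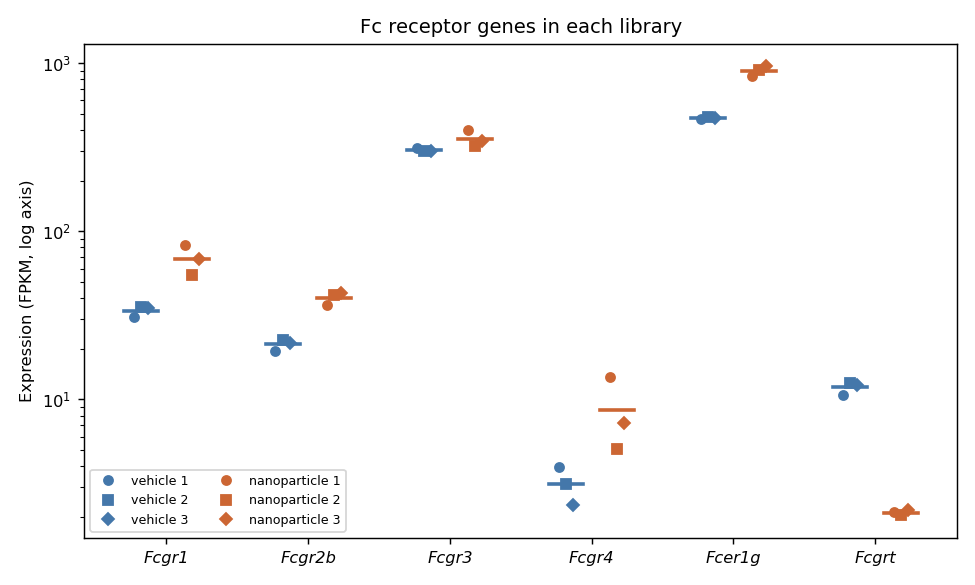
Expression of the 6 genes in each of the 6 samples, in FPKM on a log axis, with vehicle in blue and nanoparticles in orange, sample numbers by symbol, and a line at each group mean (n = 3). Every nanoparticle sample lies above every vehicle sample for Fcgr1, Fcgr2b, Fcgr3, Fcgr4 and Fcer1g, and below for Fcgrt, whose nanoparticle values lie between 2.04 and 2.20 FPKM.

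Fcgr1 (ENSMUSG00000015947, chr3:96282909-96293969 on GRCm38, minus strand) encodes the high-affinity receptor, which can hold single IgG molecules. It was at 31.0, 35.2 and 34.8 FPKM in vehicle samples 1 to 3, and at 83.1, 55.0 and 68.0 FPKM in nanoparticle samples 1 to 3. The groups did not overlap, and the nanoparticle samples were spread more widely, with sample 1 the highest. The mean rose from 33.7 ± 2.31 to 68.7 ± 14.1 FPKM (SD, n = 3 each), 2.04 times. The log2 change was 0.99 (SE 0.168, 95% interval 0.58 to 1.40, limma adjusted p = 0.00565). In RPM, recovered reads scaled to the library's total, the ratio of means was 1.61, and the call was lost when samples were scaled to equal sums of FPKM (0.53, limma adjusted p = 0.0784).

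Fcgr4 (ENSMUSG00000059089, chr1:171018920-171029761, plus strand) encodes an activating receptor of intermediate affinity and was the least abundant of the receptors with vehicle. Its vehicle values were 3.96, 3.13 and 2.36 FPKM, and its nanoparticle values were 13.6, 5.10 and 7.19 FPKM. All 3 nanoparticle samples were above the vehicle samples, but sample 1 was far above the other two. These values rest on 62 to 99 reads per vehicle sample and 106 to 278 reads per nanoparticle sample. The mean rose from 3.15 ± 0.796 to 8.61 ± 4.40 FPKM (SD, n = 3 each), 2.73 times, and 1.95 times without nanoparticle sample 1. The log2 change was 1.13 (SE 0.330, 95% interval 0.34 to 1.93, limma adjusted p = 0.0412). The call was lost on total reads (0.85, limma adjusted p = 0.0809), with no expression filter (1.13, limma adjusted p = 0.0941), and when any single vehicle sample or nanoparticle sample 3 was left out.

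Fcgr3 (ENSMUSG00000059498, chr1:171051174-171064935, minus strand) encodes the low-affinity activating receptor and was the most abundant of the 4 IgG receptors. Vehicle samples held 313, 302 and 302 FPKM, and nanoparticle samples held 402, 322 and 343 FPKM. The groups did not overlap on this scale, with sample 1 again the highest. The means were 306 ± 6.76 and 356 ± 41.7 FPKM (SD, n = 3 each), and the log2 difference of 0.21 (SE 0.137, 95% interval -0.12 to 0.54) did not pass limma's test (adjusted p = 0.287). The direction depended on the scaling: in RPM the vehicle samples were at 613, 601 and 600 and the nanoparticle samples at 641, 501 and 521, which overlap. The log2 difference was -0.13 on total reads, -0.26 on equal sums of FPKM and -0.48 after quantile normalization, where limma's adjusted p was 0.0498. The upper end of the interval on the deposited scale, 0.54, is below the log2 changes of Fcgr1, Fcgr2b, Fcgr4 and Fcer1g. The interval of Fcgr4, 0.34 to 1.93, overlaps that of Fcgr3. Intervals of genes measured in the same samples do not test a difference between the genes.

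Fcgr2b (ENSMUSG00000026656, chr1:170958617-170976547, minus strand) encodes the inhibitory receptor. It was at 19.5, 22.4 and 21.7 FPKM with vehicle and at 36.2, 41.6 and 43.1 FPKM with nanoparticles. No nanoparticle sample came near the vehicle range, and sample 1 was here the lowest of the nanoparticle group. The mean rose from 21.2 ± 1.51 to 40.3 ± 3.65 FPKM (SD, n = 3 each), 1.90 times, a log2 change of 0.89 (SE 0.115, 95% interval 0.62 to 1.17, limma adjusted p = 0.00198). In RPM the ratio of means was 1.49.

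Reads of Fcgr2b and Fcgr3 may be hard to separate. Of the 50-base stretches of annotated Fcgr3 transcripts, 9.58% also occurred in Fcgr2b transcripts, and 2.54% of the 100-base stretches did. The same shared stretches made up 2.92% and 0.753% of those of Fcgr2b, and no other pair of the 6 genes shared any. How the authors treated reads that fit both genes is not given in the sources used here. An antisense gene, Gm38204, overlaps Fcgr2b and had at most 4 reads in any sample.

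Fcer1g (ENSMUSG00000058715, chr1:171229572-171234365, minus strand) encodes the common gamma chain that the activating receptors need for assembly and signalling. It was the most abundant of the 6 genes, at 463, 475 and 468 FPKM with vehicle and 834, 903 and 954 FPKM with nanoparticles. Both groups were tight and far apart. The mean rose from 469 ± 6.22 to 897 ± 60.4 FPKM (SD, n = 3 each), 1.91 times, a log2 change of 0.93 (SE 0.134, 95% interval 0.61 to 1.26, limma adjusted p = 0.00299). In RPM the ratio was 1.50, and after quantile normalization the log2 change was 0.12 (limma adjusted p = 0.381). Fcer1g ranked 70th by mean level among all 23398 genes with vehicle and 65th with nanoparticles.

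Fcgrt (ENSMUSG00000003420, chr7:45092990-45103851, minus strand), the neonatal receptor gene, went the other way. Vehicle samples held 10.6, 12.5 and 12.3 FPKM and nanoparticle samples held 2.13, 2.04 and 2.20 FPKM. The nanoparticle samples were nearly alike, sample 1 included, and all were far below the vehicle range. The mean fell from 11.8 ± 1.06 to 2.12 ± 0.0782 FPKM (SD, n = 3 each), 5.56 times lower, from 443 to 538 reads per sample down to 71 to 89. The log2 change was -2.03 (SE 0.101, 95% interval -2.27 to -1.79, limma adjusted p = 8.6e-05), and only 67 of the 10682 tested genes had a lower one. Adding 1 to the FPKM makes changes at such low levels smaller, and with 0.1 added the log2 change was -2.42. The interval and the rank hold for the scale with 1 added. The call held under every scaling, filter and left-out sample that was run, with log2 changes of -2.31 on total reads and -2.10 to -1.99 with 1 sample left out.

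**Figure D2:**
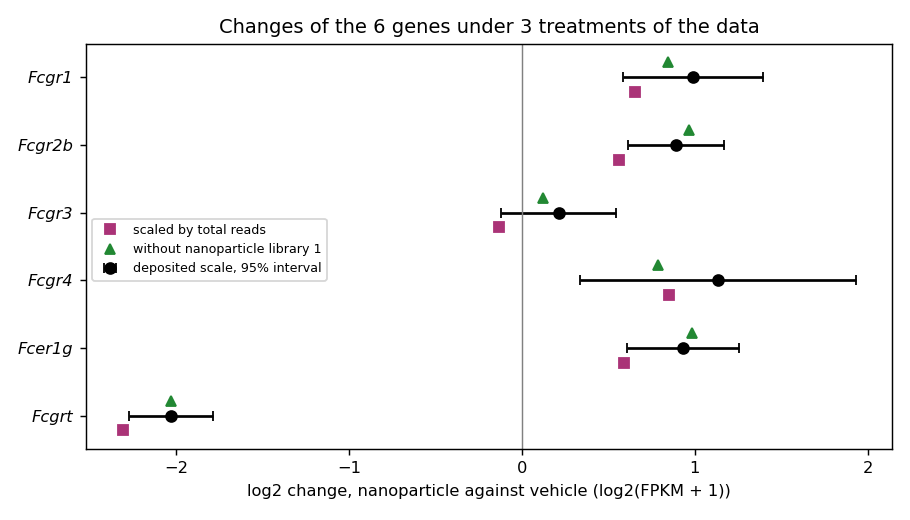
The log2 change of each gene, nanoparticle against vehicle, on log2(FPKM + 1): black points with 95% intervals on the deposited scale, squares after scaling by total reads, and triangles without nanoparticle sample 1. The squares lie to the left of the points for all 6 genes, and Fcgr3 is the one gene whose sign turns, from 0.21 to -0.13.

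B2m (ENSMUSG00000060802, chr2:122147686-122153083, plus strand), the light chain that the neonatal receptor shares with MHC class I molecules, rose while Fcgrt fell. It was at 2287, 2084 and 2057 FPKM with vehicle and at 6737, 5102 and 5577 FPKM with nanoparticles. These groups were well apart, and the log2 change was 1.43 (SE 0.197, limma adjusted p = 0.00258). The call was lost with no expression filter (limma adjusted p = 0.138). Within a sample, the ratio of Fcgrt to B2m was 14.9 times lower with nanoparticles, a log2 difference of -3.90, and the ratios of the groups did not overlap. An exact two-sided permutation test of 3 against 3 samples gave p = 0.1, the smallest that design allows, and 0.233 after adjustment over the 7 ratios computed.

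Ratios within a sample do not depend on the scaling between samples. The ratio of the activating Fcgr3 to the inhibitory Fcgr2b had log2 values of 4.01, 3.75 and 3.80 with vehicle and 3.47, 2.95 and 2.99 with nanoparticles. Every nanoparticle ratio was below every vehicle ratio. The difference was -0.71, or 1.64 times lower, with an exact permutation p = 0.1 (adjusted 0.233), and -0.88 without nanoparticle sample 1. Fcgr3 against its signalling chain Fcer1g showed the same order, with a log2 difference of -0.72 (exact permutation p = 0.1, adjusted 0.233), again without overlap.

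The other activating receptors kept overlapping ratios to both genes. The log2 ratio of Fcgr1 to Fcgr2b differed by 0.09 (exact permutation p = 0.9) and by -0.14 without nanoparticle sample 1. The ratio of Fcgr4 to Fcgr2b differed by 0.44 (exact permutation p = 0.6, adjusted 0.84) and by -0.026 without that sample. Against Fcer1g the differences were 0.08 for Fcgr1 and 0.43 for Fcgr4, and -0.12 and -0.012 without sample 1. The sign of these 4 differences rests on 1 sample, and with 3 samples a group their sizes are poorly bounded.

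**Figure D3:**
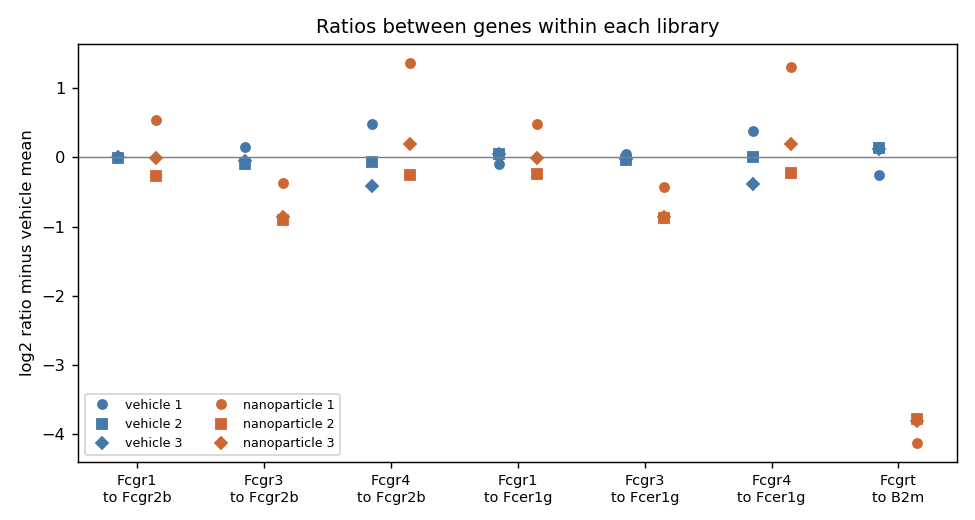
Log2 ratios between pairs of genes within each sample, after subtracting the mean of the 3 vehicle samples; colours and symbols mark group and sample number. Fcgr3 to Fcgr2b, Fcgr3 to Fcer1g and Fcgrt to B2m separate the groups, while nanoparticle sample 1 lies highest of all samples for the ratios of Fcgr1 and Fcgr4.

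The make-up of the IgG receptor messages was described from the summed FPKM of Fcgr1, Fcgr2b, Fcgr3 and Fcgr4, a sum of 361 to 368 FPKM with vehicle and 424 to 535 FPKM with nanoparticles. Fcgr3 held 85.2%, 83.2% and 83.7% of it with vehicle and 75.2%, 76.0% and 74.3% with nanoparticles. Fcgr1 held 9.27 ± 0.724% and then 14.4 ± 1.30%, and Fcgr2b 5.84 ± 0.468% and then 8.65 ± 1.65% (SD, n = 3). Fcgr4 held 0.865 ± 0.210% and then 1.77 ± 0.688%. The 3 activating receptors together made up 94.2 ± 0.468% with vehicle and 91.4 ± 1.65% with nanoparticles. These shares follow from the same values as the tests above and were not tested again.

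Shares between genes depend on the length assumed for each. The merged exons of Fcgr2b span 5790 bases, but its longest coding transcript has 3544. With the longest coding transcript of each gene as its length, a choice made after seeing the data, Fcgr2b held 6.77% to 7.90% with vehicle and 8.77% to 12.5% with nanoparticles. Fcgr3 then held 83.8% to 85.8% and 75.2% to 76.9%. Fcgr3 still held the largest share in every sample. Fcgr2b was then slightly above Fcgr1 in the 3 vehicle samples, and with nanoparticles their order differed between samples, with 12.3% Fcgr1 and 8.77% Fcgr2b in sample 1 but 10.1% and 12.5% in sample 2.

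**Figure D4:**
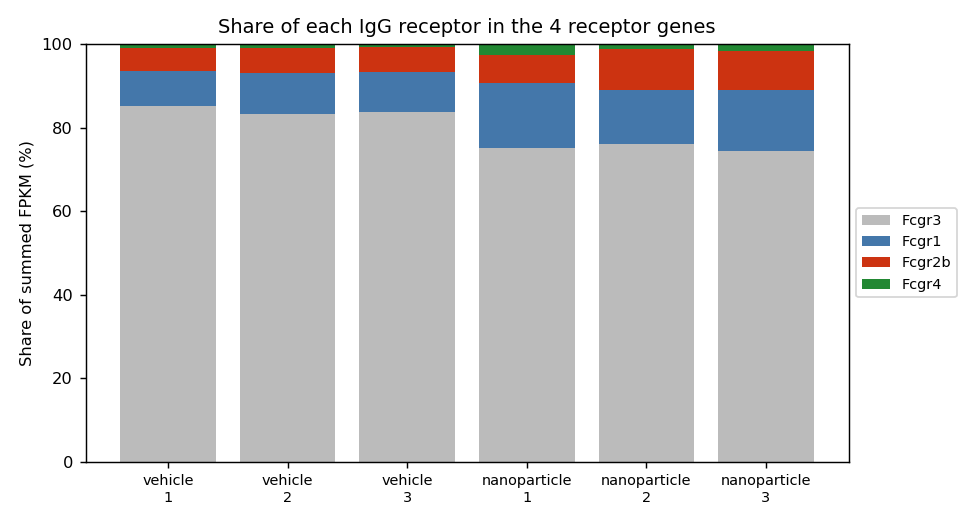
Share of Fcgr3, Fcgr1, Fcgr2b and Fcgr4 in their summed FPKM in each sample, in percent, stacked to 100. The grey share of Fcgr3 is 83.2% to 85.2% in the vehicle samples and 74.3% to 76.0% in the nanoparticle samples.

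Promoter windows from RefSeq (GRCm38.p6), 250 bases before to 50 after each annotated start, were available for all 6 genes. They were searched on both strands for 4 motifs of factors on the lists used here: the GAS element TTCNNNGAA bound by STAT dimers, the ISRE core GAAANNGAA bound by interferon regulatory factors, the PU.1 box GAGGAA, and the NF-kappaB site in its usual degenerate form. These occurred in 8.30%, 8.56%, 28.3% and 4.51% of all 32851 windows. The 250 bases upstream of the start are shown for the pair of activating receptors that rose and for the neonatal receptor that fell, 5′ to 3′ on the gene's strand, with matches in capitals. The stretches are chr3:96293970-96294219 for Fcgr1, chr1:171018676-171018925 for Fcgr4 and chr7:45103823-45104072 for Fcgrt.
Fcgr1: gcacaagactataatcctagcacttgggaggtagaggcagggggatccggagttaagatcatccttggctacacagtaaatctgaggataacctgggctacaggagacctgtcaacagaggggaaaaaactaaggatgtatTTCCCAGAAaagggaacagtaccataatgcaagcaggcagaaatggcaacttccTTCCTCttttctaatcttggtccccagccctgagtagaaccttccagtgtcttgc
Fcgr4: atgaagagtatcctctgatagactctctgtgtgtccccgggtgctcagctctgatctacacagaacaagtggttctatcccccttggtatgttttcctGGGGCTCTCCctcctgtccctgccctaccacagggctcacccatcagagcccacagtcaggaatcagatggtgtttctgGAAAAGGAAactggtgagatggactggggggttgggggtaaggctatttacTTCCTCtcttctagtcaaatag
Fcgrt: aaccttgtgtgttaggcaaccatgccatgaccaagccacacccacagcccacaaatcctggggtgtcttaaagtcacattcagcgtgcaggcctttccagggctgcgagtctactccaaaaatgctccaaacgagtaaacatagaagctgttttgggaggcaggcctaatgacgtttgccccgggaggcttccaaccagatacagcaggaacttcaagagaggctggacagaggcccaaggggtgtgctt

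In the Fcgr1 stretch the capitals mark a GAS match starting at position -109 from the start site and, nearer to it at -55, a PU.1 box on the opposite strand. In the Fcgr4 stretch they mark an NF-kappaB match at -152, an ISRE core at -73 and a PU.1 box on the opposite strand at -22. Fcgr3, which was not called, has 2 overlapping windows, each with a PU.1 box and an NF-kappaB match. None of the 4 motifs was found in the windows of Fcgr2b, Fcer1g or Fcgrt, which says only that these letters are not there. A match is a match of letters and no measure of binding.

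The genes of Fcgr2b, Fcgr4, Fcgr3 and Fcer1g lie in this order on chromosome 1, while Fcgr1 and Fcgrt lie on chromosomes 3 and 7. Within 200 kb of any of the 6 the table held 85 other genes, of which 36 were tested. Of these 5 were called higher and 0 lower, with a median log2 change of 0.06. Of all tested genes 33.2% were called, 17.0% as higher and 16.2% as lower. On chromosome 1 only Fcrlb, itself an Fc receptor-like gene, was called among 15 tested neighbours. Near Fcgr1, 0 of 6 tested neighbours were called. Near Fcgrt 4 of 15 were called, all higher, against the fall of Fcgrt: Rras (a small GTPase, log2 change 0.85), Cd37 (a tetraspanin, 0.53), Prrg2 (0.46) and Trpm4 (an ion channel, 0.64), the last named because it completes the count.

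Profiles over the 6 samples were compared by the root mean square difference of log2(FPKM + 1) after subtracting each gene's vehicle mean. Among the 6 genes, Fcgr2b and Fcer1g were the nearest pair, at 0.060, and next came Fcgr1 with Fcer1g at 0.22 and with Fcgr2b at 0.24. Among other tested genes with at least 5 FPKM in the higher group, the 6 themselves left out, the nearest to Fcgr2b were 1110012L19Rik (0.059), Cct3 (0.061) and Psmb7 (0.062). Cct3, a chaperonin subunit, was also near Fcer1g (0.037), after Edem2 (0.025) and before Gng12 (0.050). The genes nearest to Fcgr1 were Gm32089 (0.082), Tmem184b (0.087) and Hist1h2bc (0.090). Fcgr3 was nearest to Os9 (0.030), Hspa13 (0.034) and Clec7a (0.038), the last a receptor for fungal glucans. Fcgr4 had no close neighbour: the nearest were Tlr3 (0.16), an endosomal sensor of double-stranded RNA, Ifi207 (0.16) and Gm11425 (0.19). Fcgrt was nearest to Uhrf1 (0.098), Aurkb (0.10) and Kifc1 (0.10), which act in DNA methylation upkeep, mitosis and spindle assembly. These distances describe 6 samples in 2 groups and carry no test.

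The genes around the receptors were read from 8 lists with 106 genes, of which 100 were in the table and 90 were tested. Of those 90, 22 were called higher and 24 lower, or 51.1%, beside 33.2% of all tested genes, and their median log2 change was 0.02. The counts of each list below stand beside 17.0% of all tested genes called higher and 16.2% lower on the deposited scale. Without nanoparticle sample 1, 41 were called higher and 36 lower, in a fit that called 64.8% of all tested genes, 34.3% as higher and 30.5% as lower. On total reads 18 were called higher and 32 lower, beside 10.4% and 33.8%.

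Other Fc receptors moved in both directions. Of 13 genes 8 were in the table and 3 passed the filter: 2 rose and 1 fell, with a median log2 change of 1.39. Fcrls, a scavenger receptor-like member of the family, fell from 54.2, 52.1 and 53.5 FPKM to 7.06, 9.63 and 10.4 FPKM (log2 change -2.45, limma adjusted p = 0.000148). Fcrlb, an intracellular member, rose from 2.67 ± 0.153 FPKM (SD, n = 3) to 8.68, 8.38 and 8.73 FPKM (log2 change 1.39). Trim21, the cytosolic Fc receptor that marks antibody-coated particles for degradation, rose from 3.28, 2.36 and 2.93 FPKM to 27.0, 12.7 and 12.6 FPKM (log2 change 2.18). Each of the 3 separated the groups fully, as did 25.9% of all tested genes upward and 26.2% downward. Ms4a2, a chain of the IgE receptor that also holds Fcer1g, had at most 3 reads in every sample.

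Among partner chains 2 of 3 tested genes rose: B2m, given above, and Hcst, a signalling adaptor whose log2 change was 0.69 (limma adjusted p = 0.0231), a call lost on total reads (0.38, limma adjusted p = 0.0957), on equal sums of FPKM (0.26, limma adjusted p = 0.122), with no filter, and when any single vehicle sample or nanoparticle sample 2 was left out. Tyrobp, the other activation-motif adaptor of myeloid cells, was at 860, 817 and 815 FPKM and then at 449, 902 and 1025 FPKM. Nanoparticle sample 1 alone was low, the groups overlapped, and the log2 difference of -0.15 was not called (limma adjusted p = 0.749). Whether it differed from Fcer1g was not tested.

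Other receptors that use the common gamma chain were split, with 2 of 6 tested higher, 1 lower and 3 not called (median -0.02). Clec4e, a receptor for mycobacterial glycolipid and dying cells, rose from 2.54, 4.47 and 4.14 FPKM to 684, 382 and 357 FPKM (log2 change 6.62, limma adjusted p = 6.62e-05). Its partner Clec4d rose from a vehicle range of 144 to 150 FPKM to 359 to 459 FPKM (log2 change 1.49). Lilra5, named to complete the count, fell by 0.56 on the log2 scale. The fungal receptor gene Clec4n was at 1685 to 1724 FPKM with vehicle and at 778, 2295 and 2477 FPKM with nanoparticles, and was not called.

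Kinases next to the receptors also moved both ways: of 8 tested, 3 rose, 3 fell and 2 were not called (median -0.34), and all 8 separated the groups. Of all tested genes, 17.0% were called higher and 16.2% lower. Groups did not overlap for 25.9% of all tested genes on the higher side and 26.2% on the lower side. Src rose from 9.57, 8.47 and 8.11 FPKM to 59.0, 43.0 and 39.1 FPKM (log2 change 2.29, limma adjusted p = 0.000287). Syk, the kinase that docks on the phosphorylated gamma chain, rose from 37.5, 37.1 and 37.2 FPKM to 111, 77.9 and 68.9 FPKM (log2 change 1.15, limma adjusted p = 0.00463). The call of Syk was lost on equal sums of FPKM (0.69, limma adjusted p = 0.0551) and after quantile normalization (0.76, limma adjusted p = 0.0508). Tec fell from 27.5, 28.2 and 27.2 FPKM to 14.5, 16.7 and 17.1 FPKM (log2 change -0.75). Fyn and Btk fell as well. Lyn, which phosphorylates both kinds of receptor motif, had a log2 difference of -0.35 that was not called (limma adjusted p = 0.116).

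Among phosphatases and adaptors of inhibition, 1 of 13 tested genes was called higher and 3 lower, with a median of -0.49. Inpp5d, the phosphatase that acts downstream of the Fcgr2b product, fell from 24.2, 24.9 and 23.7 FPKM to 11.2, 9.53 and 10.5 FPKM (log2 change -1.15, limma adjusted p = 0.00047). The inhibitory receptor gene and the gene of its main effector moved in opposite directions, on total reads too. Ubash3b, a phosphatase acting on Syk, fell by 0.99 and Sla, an adaptor that dampens receptor signalling, by 1.52 on the log2 scale. Dok1 rose on the deposited scale (0.85). Ptpn6 overlapped between groups, at 53.1 to 57.8 and 30.9 to 63.2 FPKM. Without nanoparticle sample 1, 10 of the 13 were called lower and 1 higher, beside 30.5% and 34.3% of all tested genes in that fit. On total reads 9 were called lower and 0 higher, beside 33.8% and 10.4%, so Dok1 lost its call there.

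Adaptors and lipid enzymes had 4 of 20 tested genes higher, 8 lower and 8 not called (median -0.07), beside 17.0% and 16.2% of all tested genes. On total reads 2 were higher and 8 lower (median -0.37), beside 10.4% and 33.8%. On equal sums of FPKM 1 was higher and 10 lower (median -0.46), beside 881 and 4306 of the 10682 tested genes. Without nanoparticle sample 1, 7 were higher and 10 lower, beside 34.3% and 30.5%. Blnk, a scaffold for phospholipase C, rose from 11.6, 11.5 and 11.1 FPKM to 25.8, 24.4 and 27.3 FPKM (log2 change 1.11, limma adjusted p = 0.000406). Pik3cd, the leukocyte catalytic subunit of PI3-kinase, fell from 42.1, 43.5 and 43.9 FPKM to 16.8, 21.4 and 20.8 FPKM (log2 change -1.10). Vav2, a guanine nucleotide exchange factor, fell by 0.90 on the log2 scale.

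The phagocytic cup list, which holds actin regulators, had 0 of 23 tested genes higher by limma and 6 lower, with a median of 0.04. Dock2, a Rac exchange factor, fell from 27.9, 25.9 and 27.2 FPKM to 11.9, 13.1 and 11.7 FPKM (log2 change -1.08, limma adjusted p = 0.000496). Wipf1 and Was, which form a complex that activates actin branching, fell by 0.61 and 0.48, and Gsn, Pak1 and Elmo1 made up the count. Without nanoparticle sample 1, 12 were called higher and 6 lower, beside 34.3% and 30.5% of all tested genes in that fit. On total reads 0 were called higher and 7 lower, beside 10.4% and 33.8%, and the median of the list was -0.29.

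Regulators known to set Fc receptor levels had 8 of 14 tested genes higher and 2 lower, beside 17.0% and 16.2% of all tested genes. The median of the list was 0.79. Tnf rose from 48.5, 47.8 and 46.5 FPKM to 965, 1264 and 1072 FPKM (log2 change 4.49, limma adjusted p = 2.39e-05). Irf1 rose from 5.50, 5.59 and 5.65 FPKM to 38.3, 32.9 and 34.9 FPKM (log2 change 2.46). The pair of interferon-gamma receptor chains split, with Ifngr1 called lower (-0.81) and Ifngr2 higher (0.85), and Spi1, which encodes PU.1, overlapped between the groups. C5ar1, the receptor of a complement fragment, was the other gene called lower (-1.33). On total reads the counts were also 8 higher and 2 lower, beside 10.4% and 33.8% of all tested genes.

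**Figure D5:**
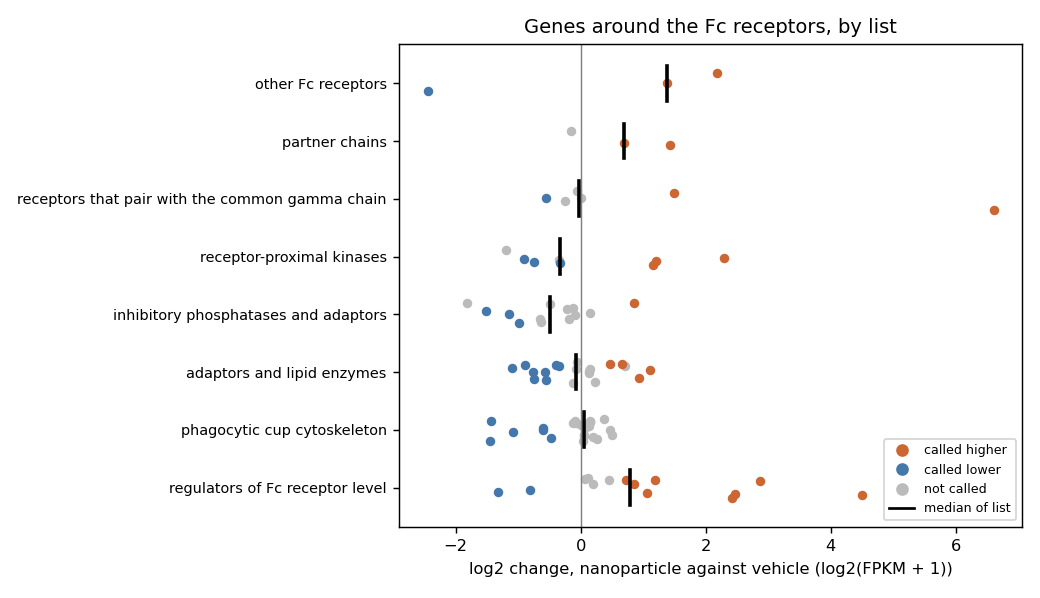
Log2 change on log2(FPKM + 1) of each tested gene of the 8 lists, nanoparticle against vehicle, coloured by call, with the median of each list as a bar. Clec4e lies farthest right at 6.62, and the phagocytic cup list has calls on the lower side alone, a split that changed without nanoparticle sample 1.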

How the data were processed

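RNA sequencing of 3 nanoparticle and 3 vehicle samples was used, grouped by titles and treatment labels. Libraries were made with a NEBNext Ultra II kit from 1 µg of total RNA, per the labels' protocols. The submitters' processing notes name CASAVA, STAR 2.5, HTSeq, edgeR 3.16.5 and DESeq2 and the builds mm10 and hg19, without roles. The authors deposited 2 tables whose 140388 values are identical. The deposited values were taken to be FPKM. No header or label names that unit, which was deduced as follows. Multiplied by GENCODE M21 merged exon lengths and a library scale, 95.8% to 96.1% of values above 0 became whole reads (within 0.01), and library scales equalled median-of-ratios size factors of those reads within 4.71e-08 percent. Such factors hide any shift common to the majority of genes.

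From these FPKM, log2(FPKM + 1) was tested with limma 3.58.1 in R 4.3.3, with a mean-variance trend, where 3 or more libraries reached 1 FPKM, with Benjamini-Hochberg adjustment over all 10682. Ratios were tested by exact permutation (scipy 1.17.1). The recovered reads were tested by limma-voom as an added alternative and gave 3583 calls. On simulated data 50 of 50, 49 of 50, 50 of 50 and 50 of 50 changed genes were recovered at true log2 changes of -2, -1, 1 and 2, in 10542 genes with 22 of 10342 unchanged genes called. The median log2 change found at a true -2 was -1.69. Every simulated library had the same dispersion, none stood apart, and only genes with a vehicle mean of at least 5 FPKM were changed. The simulation therefore says nothing on noise like that of nanoparticle sample 1 or on genes as low as Fcgr4. The alternatives were pseudocounts of 0.1 and 0.5, no filter or 5 FPKM, 3 other scalings, no trend, library weights, a replicate block and each library left out. Named genes were the 6 members, B2m, for each list or locus up to 3 genes with the smallest adjusted p among called genes with groups apart and a group mean of 5 FPKM or more, and the 3 nearest profiles. Some genes that fall under this rule are not reported here. Others are named to complete a count or as a marker or contrast, chosen after their values were seen. The 6 genes and all lists were chosen with earlier results of these data known. Gene positions are from GENCODE M21, which matched 23366 IDs.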

Additional observations from a re-analysis of the deposited data

How the results depend on the processing

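The fall of Fcgrt and the rise of Fcgr2b kept their direction and call under every alternative run. For other results the following changed, and the cause was not tested. All-gene calls numbered 7237 with library weights and 2141 to 6923 with 1 library left out (without nanoparticle library 1 the highest), against 3550. Scaling moved the split of higher and lower calls from 1817 and 1733 to 1107 and 3613 (total reads) and 881 and 4306 (equal sums of FPKM), and a filter of 5 FPKM left 1475 and 975. Calls in the 8 lists numbered 73 with library weights and 30 to 77 with 1 library left out. Of the 6 genes, 2 were called higher with equal sums, and 2 higher and 2 lower with quantile normalization. Quantile normalization called 1641 of all tested genes higher and 2203 lower. Fcgr1 lost its call with equal sums (0.53) and quantile normalization (0.63), and Fcer1g with quantile normalization (0.12). Fcgr4 lost it with no filter (1.13), equal sums (0.75), total reads (0.85) and 4 of the 6 libraries left out, with a range of 0.79 to 1.41. Fcgr3 reversed with equal sums (-0.26), total reads (-0.13) and quantile normalization (-0.48). With 1 library left out, the log2 ratio differences ranged from -0.14 to 0.26 for Fcgr1 to Fcgr2b, -0.026 to 0.78 for Fcgr4 to Fcgr2b, -0.12 to 0.23 for Fcgr1 to Fcer1g and -0.012 to 0.75 for Fcgr4 to Fcer1g. Same-numbered samples did not deviate together (correlations 0.065, 0.113 and -0.058). With the replicate block 2785 genes were called, the calls of the 6 genes were the same, and Was lost its call (limma adjusted p = 0.0674). Other named genes lost calls too: B2m with no filter, Syk with equal sums and quantile normalization, Hcst with no filter, equal sums, total reads and 4 of the 6 libraries left out, and Was with 4 left out. Fcgr4 rests on 62 to 278 reads per library. The effect of reads shared by Fcgr2b and Fcgr3 was not tested. Exact permutation of 3 against 3 libraries cannot go below p = 0.1.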
